A study of Homo sapiens with 6 samples.

Results

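The genes described here are 10 that encode restriction factors, cellular proteins that block viruses and mobile elements: the cytidine deaminases APOBEC3B, APOBEC3C, APOBEC3D, APOBEC3F and APOBEC3G, the Schlafen proteins SLFN5, SLFN11, SLFN12 and SLFN13, and the dNTP hydrolase SAMHD1. They were taken by name from a table of read counts per gene with 56303 rows, and all 10 were found in it. The counts come from RNA sequencing of A549, an established line of human lung adenocarcinoma. Of the 6 libraries, 3 are from cells transfected with siRNA against HNRNPD (labelled HNRNPD si, replicates 1 to 3). The remaining 3 are from cells transfected with negative-control siRNA (labelled HNRNPD NC, replicates 1 to 3). The sources used here do not give how many siRNAs were used, their sequences, their dose or the time between transfection and harvest. Nothing in the labels says that the libraries of a group came from separate cultures. The p-values therefore reflect library-to-library spread alone, and that spread may be technical.

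APOBEC3 enzymes turn cytosine into uracil in single-stranded DNA. APOBEC3G, APOBEC3F and APOBEC3D are packaged into HIV-1 particles that lack Vif and mutate the viral cDNA, whereas APOBEC3B is a nuclear enzyme whose mutation pattern is found in many tumours. SAMHD1 breaks down the dNTPs that reverse transcription needs and is switched off as an antiviral factor when cyclin-dependent kinases phosphorylate it. Schlafen proteins act on RNA and chromatin: SLFN11 and SLFN13 cleave transfer RNA, SLFN11 also arrests stressed replication forks, SLFN12 is an RNase that binds PDE3A, and SLFN5 is a nuclear protein that represses transcription of herpes simplex virus. HNRNPD encodes AUF1, a protein that binds AU-rich sequences in mRNA.

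The libraries held 37151094 to 40462117 counts with HNRNPD siRNA and 42607632 to 43005090 counts with control siRNA. Levels are given as CPM, the count of a gene scaled to a common library total after TMM normalisation. HNRNPD itself was at 177, 163 and 168 CPM in HNRNPD siRNA replicates 1 to 3, against 965, 943 and 942 CPM in control replicates 1 to 3, a fall of 2.49 on the log2 scale (SE 0.06, edgeR adjusted p = 1.38e-15) in the direction of the labels. Groups were compared with edgeR's quasi-likelihood test, with Benjamini-Hochberg adjustment over the 20465 genes that passed a filter on low counts, and a gene is called at an adjusted p under 0.05. The comparison is a broad one, with 56.1% of all tested genes called. The keratins KRT8 and KRT18, which mark epithelial cells, were at 2043 to 2066 and 567 to 599 CPM with HNRNPD siRNA, against 3242 to 3482 and 964 to 1015 CPM with control siRNA. The keratin KRT19 was also lower, at 3.44 to 4.12 CPM with HNRNPD siRNA against 7.49 to 7.59 CPM with control siRNA. EPCAM, another epithelial marker, went the other way, at 20.1 to 22.2 CPM with HNRNPD siRNA against 16.2 to 17.3 CPM with control siRNA, and CDH1 overlapped, at 80.8 to 97.7 CPM with HNRNPD siRNA and 90.3 to 100.02 CPM with control siRNA. NKX2-1, on the same list of 7 markers, had at most 3 counts in each library. The whole list summed to 2740.5 to 2775 CPM with HNRNPD siRNA and 4345 to 4619 CPM with control siRNA. Of 10 leukocyte markers, PTPRC, CD3E, CD3D, MS4A1, LYZ and HLA-DRA had at most 3 counts in each library, and the summed level of the list was 3.96 to 5.25 CPM with HNRNPD siRNA and 6.996 to 8.46 CPM with control siRNA. Within that sum ITGAM was at 1.38 to 2.52 CPM with HNRNPD siRNA and 4.27 to 4.74 CPM with control siRNA. CD14 was likewise lower, at 0.27 to 0.67 CPM with HNRNPD siRNA and 1.69 to 2.65 CPM with control siRNA. NKG7 went the other way, at 1.62 to 1.67 CPM with HNRNPD siRNA and 0.52 to 0.72 CPM with control siRNA. Of 6 fibroblast and endothelial markers, DCN had at most 3 counts in each library, and the list summed to 6.75 to 7.81 CPM with HNRNPD siRNA and 5.05 to 6.01 CPM with control siRNA. The part of these marker differences in the results below was not tested.

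All 10 genes passed the filter, and 7 were called: APOBEC3C, APOBEC3D, APOBEC3F, APOBEC3G, SLFN13 and SAMHD1 were higher and SLFN5 was lower after HNRNPD siRNA. The count of 6 higher stands beside a background of 28.4% of tested genes called higher, and the count of 1 lower beside 27.8% called lower. The groups did not overlap in CPM for 7 of the 10 genes, against 62.6% of all tested genes. The median log2 fold change was 0.72 for the 10 genes and 0.01 for all tested genes. APOBEC3B, SLFN11 and SLFN12 did not pass the test. In these bulk libraries, a change in the RNA of each cell cannot be told apart from a change in the share of cells that express a gene.

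**Figure D1:**
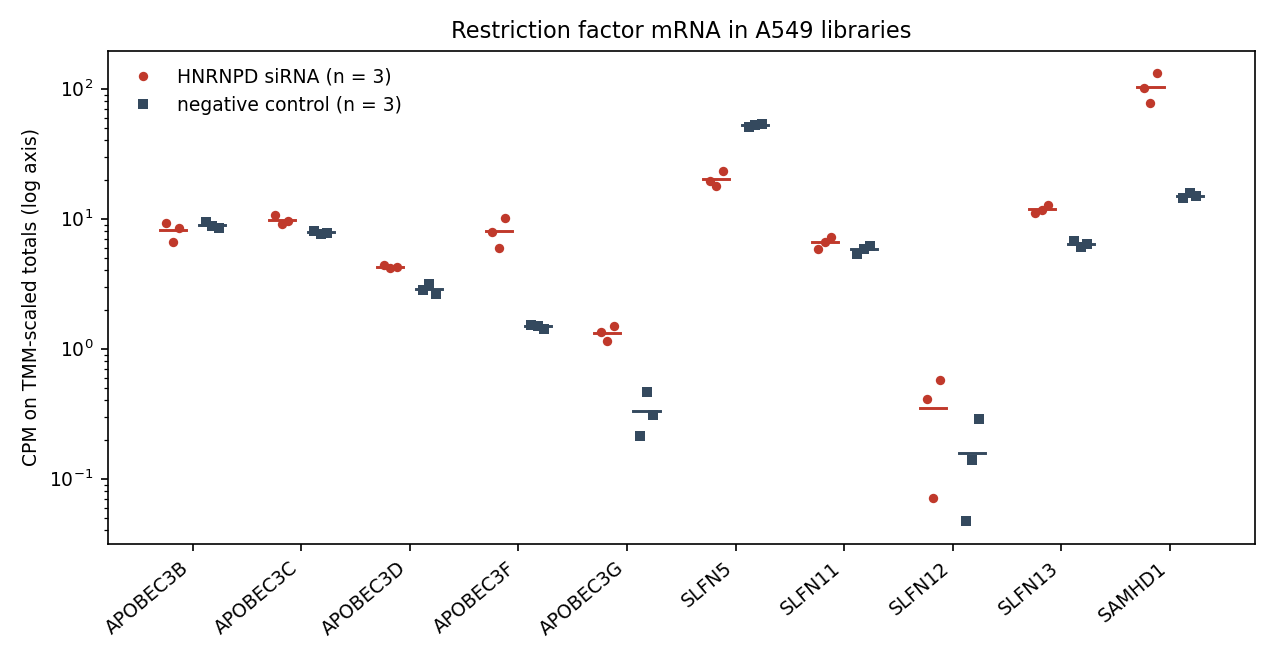
CPM of each of the 10 genes in each library (log axis), with HNRNPD siRNA libraries as red circles left of control libraries as dark squares, and group means as lines (n = 3 each). SAMHD1 sits at 77.9 to 132 CPM with HNRNPD siRNA above 14.5 to 15.9 CPM with control siRNA, while SLFN5 sits at 17.7 to 23.3 CPM below 50.6 to 53.7 CPM.

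SAMHD1, the dNTP triphosphohydrolase, showed the largest rise of the 10. It is encoded on the minus strand of chromosome 20, at 36890229 to 36951843 in GRCh38. SAMHD1 had 101, 77.9 and 132 CPM in HNRNPD siRNA replicates 1 to 3, against 14.5, 15.9 and 14.9 CPM in control replicates 1 to 3. The lowest library with HNRNPD siRNA was above every control library, and the libraries with HNRNPD siRNA differed from each other by up to 1.69-fold, against 1.10-fold among the controls. The mean was 104 ± 27.0 CPM with HNRNPD siRNA and 15.1 ± 0.72 CPM with control siRNA (SD, n = 3 each), a fitted 6.87-fold rise (log2 fold change 2.78, SE 0.22, edgeR adjusted p = 0.000274). Of all tested genes, 1.11% had a log2 fold change at least as high as that of SAMHD1. Of the exonic bases of SAMHD1, 4.07% are shared with TLDC2 on the opposite strand, and whether the counting used strand is unknown. Reads in the shared bases may have been counted for either gene or for both. TLDC2 was itself called higher (log2 fold change 3.63, edgeR adjusted p = 5.53e-07), with 641, 665 and 948 counts with HNRNPD siRNA against 70, 83 and 43 with control siRNA. SAMHD1 had 3690, 3263 and 5276 counts with HNRNPD siRNA against 616, 680 and 626 with control siRNA. The part of reads from the shared bases in the rise of either gene was not tested.

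The promoter windows of SAMHD1 and SLFN11 are shown as a pair of genes from this set of which the first was called and the second was not. Each holds the 250 bases before and the 50 bases after the RefSeq transcript start (GRCh38.p14), read 5′ to 3′ on the gene's strand, and 3 of the 10 genes had an entry in the promoter table, with SLFN12 as the remaining one. Capitals mark matches on either strand to the interferon-stimulated response element (GAAA, any 2 bases, GAAA), the STAT site TTCNNNGAA or an NRF1-like motif (GCGC, any base, TGCGC), the last of which was chosen after the SAMHD1 window had been seen.
SAMHD1 (chr20:36951659-36951958, minus strand): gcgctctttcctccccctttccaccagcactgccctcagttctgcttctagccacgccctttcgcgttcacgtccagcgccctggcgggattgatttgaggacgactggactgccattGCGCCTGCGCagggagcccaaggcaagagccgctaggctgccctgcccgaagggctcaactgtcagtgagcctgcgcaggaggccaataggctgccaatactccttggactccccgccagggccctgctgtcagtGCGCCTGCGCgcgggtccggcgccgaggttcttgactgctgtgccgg
SLFN11 (chr17:35373572-35373871, minus strand): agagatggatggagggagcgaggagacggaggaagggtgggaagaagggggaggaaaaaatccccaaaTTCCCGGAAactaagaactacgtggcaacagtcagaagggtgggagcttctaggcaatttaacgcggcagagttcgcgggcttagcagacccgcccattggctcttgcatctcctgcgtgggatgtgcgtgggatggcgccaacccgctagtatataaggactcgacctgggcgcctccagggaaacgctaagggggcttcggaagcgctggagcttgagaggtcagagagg

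The SAMHD1 window holds 2 matches to the NRF1-like motif, which 5.78% of the 35116 promoter windows in the table contain. The SLFN11 window holds 1 place that matches TTCNNNGAA, a pattern that matches on both strands wherever it matches on 1, and 7.66% of windows contain such a match. None of the windows of SAMHD1, SLFN11 and SLFN12 contains the interferon-stimulated response element, which 3.57% of all windows do. A match is a description of letters, not a binding site, and letters outside these windows were not searched.

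Of the 5 APOBEC3 genes, which lie side by side on the plus strand of chromosome 22, 4 were called higher and 1 was not called. APOBEC3F and APOBEC3G rose most, APOBEC3D and APOBEC3C rose less, and APOBEC3B did not pass the test. These genes are close paralogs, and since it is unknown how reads that match several of them were counted, the division of reads between them is uncertain. APOBEC3F, which carries a pair of deaminase domains and is packaged into virions, lies from 39040604 to 39053910. APOBEC3F had 7.97, 5.99 and 10.1 CPM in HNRNPD siRNA replicates 1 to 3, against 1.53, 1.49 and 1.43 CPM in control replicates 1 to 3. The control libraries were within 1.07-fold of each other, and the lowest library with HNRNPD siRNA was above all of them. The fitted rise was 5.39-fold (log2 fold change 2.43, SE 0.18, edgeR adjusted p = 5.08e-09).

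APOBEC3G, the member best known for blocking HIV-1 without Vif, lies from 39040961 to 39087743 in the table. Its level was low, at 1.35, 1.15 and 1.499 CPM with HNRNPD siRNA, against 0.21, 0.47 and 0.31 CPM with control siRNA. These values stand on 49, 48 and 60 counts with HNRNPD siRNA and on 9, 20 and 13 counts with control siRNA, and the groups did not overlap. The fitted rise was 4.01-fold, with a 95% interval of 2.49-fold to 6.44-fold (log2 fold change 2.002, SE 0.33, edgeR adjusted p = 3.95e-05). In the table APOBEC3G begins within APOBEC3F, with which it shares 17 bases, or 0.312% of its exonic bases. The remaining bases lie within APOBEC3G as GENCODE 29 draws it.

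APOBEC3C, a deaminase with a single domain, and APOBEC3D, with a pair of domains, likewise share 17 bases of exon. APOBEC3D, from 39014363 to 39033276, had 4.37, 4.15 and 4.27 CPM with HNRNPD siRNA, against 2.84, 3.15 and 2.62 CPM with control siRNA. The groups did not overlap, and the rise was 1.48-fold (log2 fold change 0.57, SE 0.15, edgeR adjusted p = 0.00278). APOBEC3C, from 39014083 to 39020352, had 10.7, 9.07 and 9.62 CPM with HNRNPD siRNA, against 8.10, 7.63 and 7.82 CPM with control siRNA. Its rise was the smallest called among the 10 genes, at 1.25-fold (log2 fold change 0.32, SE 0.10, edgeR adjusted p = 0.0137). The call of APOBEC3C was lost without HNRNPD siRNA replicate 1 (adjusted p = 0.0828) and without control replicate 2 (adjusted p = 0.0572). Its adjusted p ran between 0.00756 and 0.0828 across 15 alternatives.

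APOBEC3B, the nuclear deaminase, lies from 38982347 to 38992804. Its levels were 9.26, 6.66 and 8.49 CPM with HNRNPD siRNA and 9.48, 8.75 and 8.53 CPM with control siRNA. The groups overlapped, since HNRNPD siRNA replicate 1 stood between the controls. The log2 fold change was -0.14 with a 95% interval of -0.39 to 0.12 (edgeR adjusted p = 0.35), so a rise of more than 1.08-fold and a fall to under 0.764 of the control level lie outside the interval. Of the 1896 exonic bases of APOBEC3B, 348 are shared with APOBEC3A on the same strand and 244 with APOBEC3B-AS1 on the opposite strand. The 95% intervals of APOBEC3F (2.04 to 2.82) and APOBEC3G (1.32 to 2.69) lay wholly above those of APOBEC3B, APOBEC3C (0.10 to 0.54) and APOBEC3D (0.26 to 0.88) on the log2 scale, and the differences between genes were not tested.

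**Figure D2:**
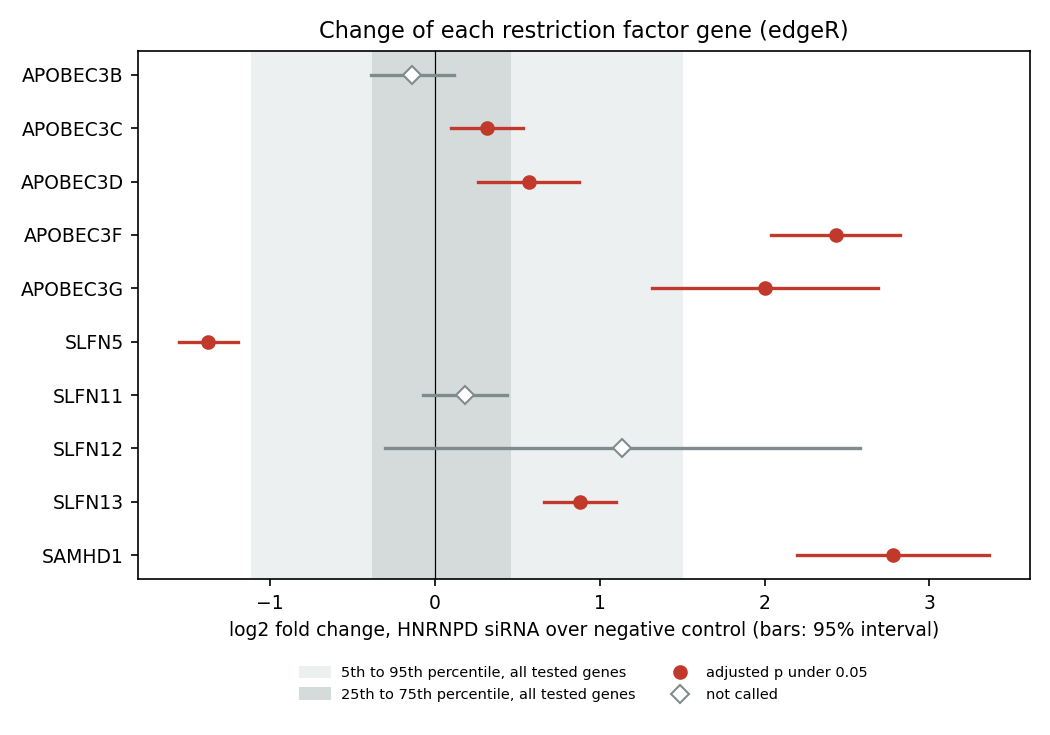
Log2 fold change of each gene, HNRNPD siRNA over control (edgeR), with bars for the 95% interval, filled circles for called genes and open diamonds for genes not called. Grey bands give the middle range of all 20465 tested genes, whose 5th and 95th percentiles are -1.11 and 1.496: SAMHD1, APOBEC3F and APOBEC3G lie to the right of the bands and SLFN5 to the left.

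The remaining genes of this family, APOBEC3A and APOBEC3H, had few counts. APOBEC3A, a single-domain deaminase of myeloid cells, had 18, 18 and 26 counts with HNRNPD siRNA against 25, 35 and 18 counts with control siRNA, and was not called (log2 fold change -0.22, SE 0.36, edgeR adjusted p = 0.63). APOBEC3H had 8, 9 and 19 counts with HNRNPD siRNA against 3, 0 and 3 counts with control siRNA. It did not reach the filter's minimum, and with no filter on low counts it was called (log2 fold change 2.59, adjusted p = 0.00566). Where no read was counted, up to 3 counts remain possible from counting error alone, or 0.0700 to 0.0825 CPM in these libraries. More distant relatives were nearly silent. APOBEC1 had no count in any library, APOBEC4 had 6 counts in all in each group, and APOBEC2 had 9 with HNRNPD siRNA and 0 with control siRNA.

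The 4 Schlafen genes went in different directions, with 1 called lower, 1 called higher and 2 not called. SLFN5, on the plus strand of chromosome 17 from 35243036 to 35273655, had the smallest p of the 10 genes. SLFN5 was at 19.6, 17.7 and 23.3 CPM in HNRNPD siRNA replicates 1 to 3, against 50.6, 52.6 and 53.7 CPM in control replicates 1 to 3. Every library with HNRNPD siRNA was below every control library by a wide margin. SLFN5 fell 2.59-fold (log2 fold change -1.37, SE 0.08, edgeR adjusted p = 2.71e-10), and 2.91% of tested genes had a log2 fold change as low or lower. None of its 10709 exonic bases is shared with another gene.

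SLFN13, a nuclease that cleaves transfer and ribosomal RNA, lies on the minus strand of the same cluster from 35435096 to 35448837. SLFN13 had 11.1, 11.6 and 12.7 CPM with HNRNPD siRNA, against 6.74, 6.07 and 6.44 CPM with control siRNA. The groups did not overlap, and replicates were within 1.14-fold and 1.11-fold of each other. The rise was 1.84-fold (log2 fold change 0.88, SE 0.10, edgeR adjusted p = 7.94e-07).

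SLFN11, the factor tied to the killing of cells by DNA-damaging drugs, lies from 35350305 to 35373701. It had 5.88, 6.59 and 7.27 CPM with HNRNPD siRNA and 5.40, 5.88 and 6.13 CPM with control siRNA. The lowest library with HNRNPD siRNA stood level with the middle control library. The log2 fold change was 0.18 with a 95% interval of -0.07 to 0.44 (edgeR adjusted p = 0.22), which leaves out a rise of more than 1.36-fold.

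SLFN12, from 35411060 to 35433283, had 15, 3 and 23 counts with HNRNPD siRNA against 2, 6 and 12 counts with control siRNA. The groups overlapped, with HNRNPD siRNA replicate 2 below control replicates 2 and 3. Its log2 fold change of 1.14 had a 95% interval of -0.30 to 2.58 (edgeR adjusted p = 0.17), which at this depth holds both no change and a rise of up to 5.97-fold. Without HNRNPD siRNA replicate 2 it was called (log2 fold change 1.64, adjusted p = 0.0321). It was tested in 13 alternatives, with adjusted p between 0.0321 and 0.54. Without HNRNPD siRNA replicate 3 its log2 fold change was 0.56, without control replicate 1 it was 0.70 and without control replicate 3 it was 1.86. Of the other Schlafen genes, SLFN12L had 6 counts in all with HNRNPD siRNA and 2 with control siRNA, and SLFN14 had 4 and 0. SLFNL1, a distant relative on chromosome 1, had 2.28, 2.72 and 2.55 CPM with HNRNPD siRNA against 1.62, 1.24 and 1.36 CPM with control siRNA, and was called higher (log2 fold change 0.84, SE 0.19, edgeR adjusted p = 0.00118). Of its exonic bases, 30.1% are shared with its antisense gene SLFNL1-AS1.

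Levels can be set between genes only per length, so CPM were divided by the exonic length in the table, as CPM per kb. With HNRNPD siRNA the order of these levels began with SAMHD1 at 20.6 ± 5.37, followed by APOBEC3B at 4.29 ± 0.71, APOBEC3C at 3.48 ± 0.30 and APOBEC3F at 2.47 ± 0.63 CPM per kb (SD, n = 3). SLFN5 at 1.88 ± 0.27, APOBEC3D at 1.68 ± 0.04, SLFN13 at 1.27 ± 0.08 and SLFN11 at 1.10 ± 0.12 CPM per kb came next, and APOBEC3G at 0.24 ± 0.03 and SLFN12 at 0.10 ± 0.07 CPM per kb came last. The ranges of neighbours overlapped between APOBEC3B and APOBEC3C, between APOBEC3F, SLFN5 and APOBEC3D in turn, and between SLFN13 and SLFN11. With control siRNA the order began with SLFN5 at 4.88 ± 0.14, APOBEC3B at 4.71 ± 0.26, SAMHD1 at 2.99 ± 0.14 and APOBEC3C at 2.79 ± 0.08 CPM per kb. It went on with APOBEC3D at 1.13 ± 0.10, SLFN11 at 0.97 ± 0.06, SLFN13 at 0.69 ± 0.04, APOBEC3F at 0.46 ± 0.02, APOBEC3G at 0.06 ± 0.02 and SLFN12 at 0.04 ± 0.03 CPM per kb. In that order the ranges overlapped between SLFN5 and APOBEC3B, between SAMHD1 and APOBEC3C, and between APOBEC3G and SLFN12. SAMHD1 thus had rank 1 with HNRNPD siRNA and rank 3 with control siRNA, and SLFN5 rank 5 with HNRNPD siRNA and rank 1 with control siRNA. The length of APOBEC3G in the table, 5454 bases, is well above the 1834 bases of its principal GENCODE 29 transcript, so its level per kb is low by comparison with genes whose row is close to 1 transcript.

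The make-up of each family changed with these levels. The summed level of the 5 APOBEC3 genes was 13.1, 10.4 and 13.0 CPM per kb with HNRNPD siRNA and 9.50, 9.11 and 8.805 CPM per kb with control siRNA. APOBEC3F took 18.7%, 17.7% and 24.0% of that sum with HNRNPD siRNA, against 4.95%, 5.06% and 5.01% with control siRNA. APOBEC3B took 37.2%, 33.7% and 34.6% with HNRNPD siRNA, against 52.6%, 50.7% and 51.1% with control siRNA, although its own level did not pass the test. APOBEC3G took at most 2.12% of the sum in any library, a share that is lowered by its row length of 5454 bases, against 1834 in its principal transcript. The summed level of the 4 Schlafen genes was 4.12, 4.02 and 4.91 CPM per kb with HNRNPD siRNA, against 6.37, 6.58 and 6.81 CPM per kb with control siRNA. SLFN5 took 44.4%, 41.1% and 44.3% of it with HNRNPD siRNA, against 74.3%, 74.6% and 73.6% with control siRNA. SLFN13 took 28.9%, 31.0% and 27.7% with HNRNPD siRNA, against 11.3%, 9.88% and 10.1% with control siRNA. SLFN11, not called by its own level, took 23.9%, 27.4% and 24.8% with HNRNPD siRNA, against 14.2%, 14.9% and 15.0% with control siRNA. For APOBEC3B, APOBEC3F, APOBEC3G, SLFN5, SLFN11 and SLFN13 the shares did not overlap between the groups. For APOBEC3C, APOBEC3D and SLFN12 they did. A share falls when others of the family rise and rises when they fall, so it does not measure the change of its own gene.

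**Figure D3:**
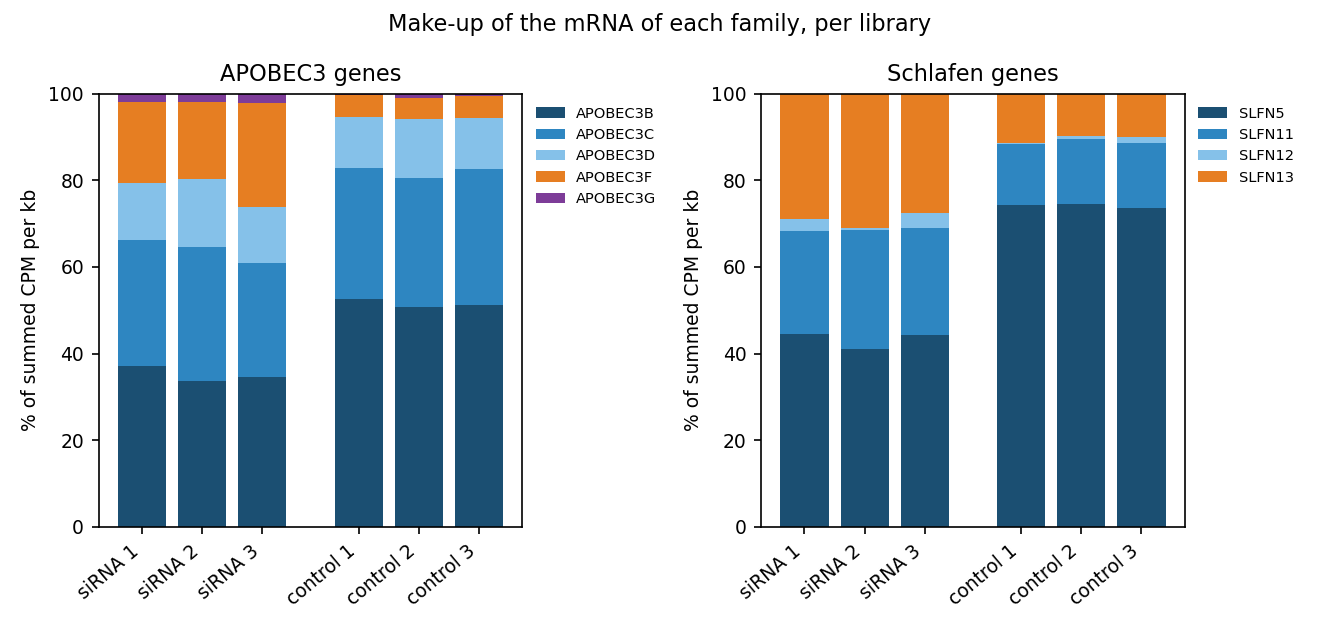
Stacked bars give the percent of the summed CPM per kb of the 5 APOBEC3 genes (left) and the 4 Schlafen genes (right) that each gene took, in each HNRNPD siRNA library and then each control library. The APOBEC3F segment is 17.7% to 24.0% with HNRNPD siRNA and 4.95% to 5.06% with control siRNA, and the SLFN5 segment is 41.1% to 44.4% and 73.6% to 74.6%.

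The libraries with HNRNPD siRNA were not alike for these genes. Replicate 3 was the highest of them for 7 of the 10 genes, SAMHD1, APOBEC3F, APOBEC3G and all 4 Schlafen genes. These include SLFN5, which fell, and SLFN11 and SLFN12, which were not called. APOBEC3B, APOBEC3C and APOBEC3D were highest in replicate 1. Replicate 2 was the lowest for 8 of the 10. How many of all tested genes had these orders was not counted, so the counts have no background. A list of 12 genes of interferon signalling and common interferon targets, such as IRF9, MX1 and ISG15, was read beside them, with all 12 highest in replicate 3 and 11 lowest in replicate 2. Its median level was 190, 172 and 202 CPM in HNRNPD siRNA replicates 1 to 3, against 7.43, 8.53 and 7.69 CPM in control replicates 1 to 3, and all 12 genes were called higher. The log2 fold changes of that list ran from 1.69 to 9.02, with a median of 4.63, so SAMHD1, APOBEC3F and APOBEC3G lay between its lowest value and its median. The 3 of smallest p were OAS1, IRF9 and IRF7, at 26.0-fold, 5.25-fold and 23.5-fold higher (edgeR adjusted p at most 2.92e-14). IRF9, a subunit of the interferon-activated factor ISGF3, shares 48.4% of its exonic bases with a same-strand gene. The interferon level moved with the replicate, and its part in the rise of the restriction factors was not tested. Without HNRNPD siRNA replicate 3, the highest for both genes, the log2 fold change was 2.56 for SAMHD1 and 2.22 for APOBEC3F. Without replicate 2, the lowest for both, it was 2.95 and 2.60, and without replicate 1 it was 2.79 and 2.43. Leaving out the highest library must lower a rise and leaving out the lowest must raise it. These values are therefore no test of a link to the interferon list.

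By the Euclidean distance between centred log2 CPM values over the 6 libraries, the genes most like SLFN5 among 11328 with a mean of at least 5 CPM were FER1L4, ANXA8 and PAQR5. Their distances to SLFN5 were 0.10, 0.19 and 0.19 on the log2 scale, against a median of 1.65 over all genes compared. They were chosen as the smallest distances, so the gap to the median is not a test of likeness. FER1L4 had 13.1, 12.2 and 15.8 CPM with HNRNPD siRNA, against 33.9, 33.5 and 37.3 CPM with control siRNA. Its highest library with HNRNPD siRNA was replicate 3 and its lowest replicate 2. SLFN5 had the same order, but FER1L4 was chosen by likeness in these same libraries, so this is not a separate observation. ANXA8 has a near-identical copy in the genome, which makes its value uncertain.

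Neighbours of the clusters were looked at as a feature the choice of genes had not used. Within 200 kb of the APOBEC3 genes, 7 other genes were tested, of which 1 was called higher and 4 lower. CBX6, a Polycomb chromobox gene, was the neighbour with the smallest p, at 39.9 CPM with HNRNPD siRNA and 27.1 CPM with control siRNA (log2 fold change 0.56, SE 0.07, edgeR adjusted p = 9.54e-07). Those lower were NPTXR (log2 fold change -0.82), CBX7 (-0.74), RP4-742C19.13 (-0.91) and PDGFB (-1.96), named after their values were seen. RP4-742C19.13 lies within the span of CBX7 on the opposite strand. APOBEC3A and APOBEC3B-AS1, also among the 7, share exonic bases with APOBEC3B, so the 7 are not all separate. Within 200 kb of the Schlafen genes, 6 other genes were tested, with 2 called higher and 2 lower (AP2B1 and NLE1). AP2B1, an adaptor subunit of clathrin-coated vesicles, had the smallest p there, at 81.2 CPM with HNRNPD siRNA and 124 CPM with control siRNA (log2 fold change -0.61, SE 0.07, edgeR adjusted p = 6.93e-07). NLE1 had a log2 fold change of -0.30 (adjusted p = 0.0365), and its call was lost without HNRNPD siRNA replicate 1 (adjusted p = 0.0881), control replicate 1 (0.129) or control replicate 2 (0.0825). The neighbours were called in 71.4% and 66.7% of cases, against 56.1% of all tested genes.

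**Figure D4:**
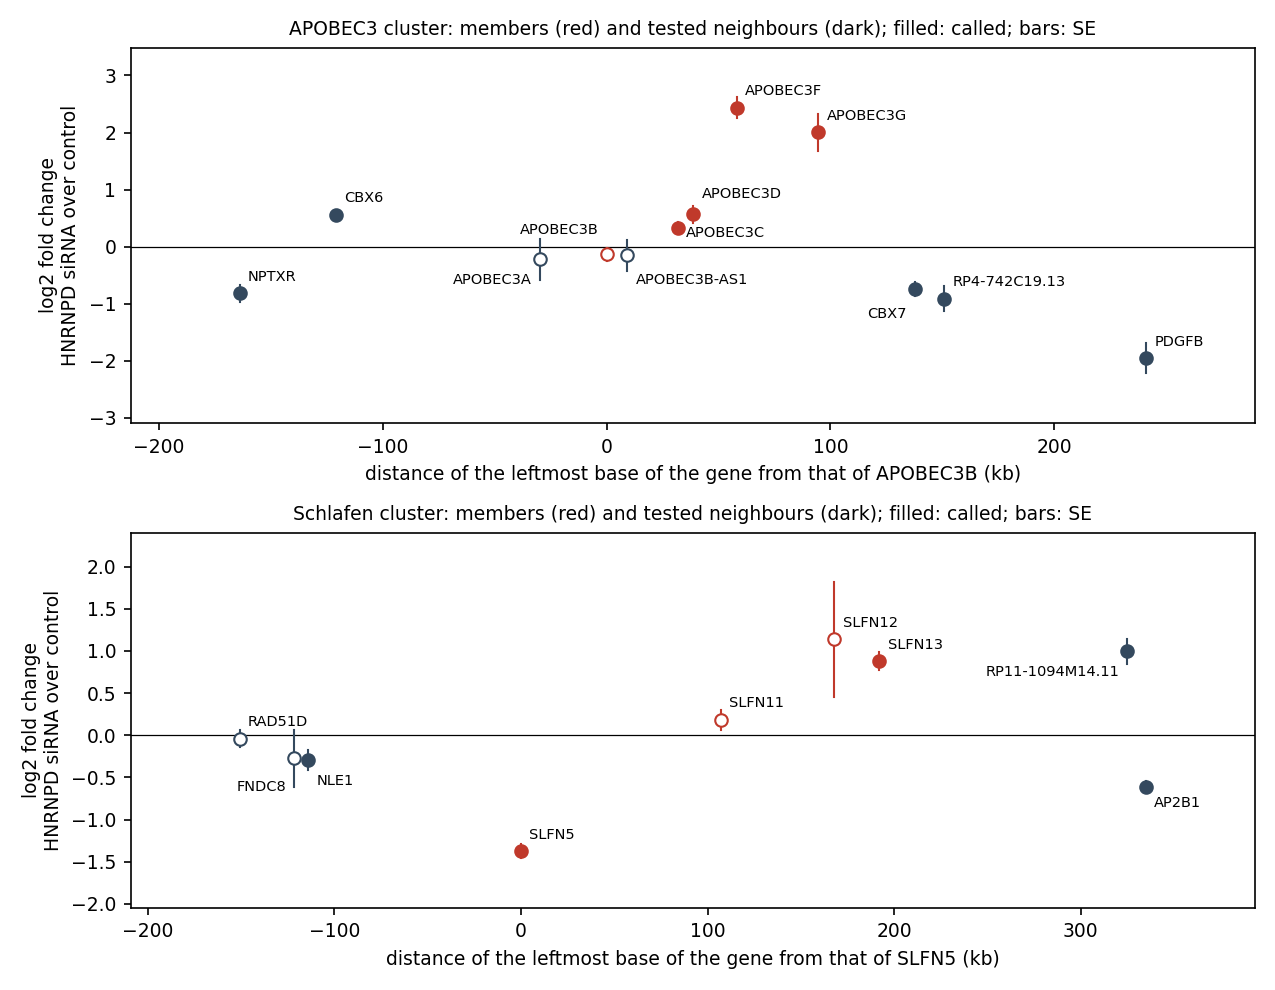
Log2 fold change (HNRNPD siRNA over control, bars for 1 SE) of tested genes named in the plot along the APOBEC3 cluster (top) and the Schlafen cluster (bottom), by distance in kb of each gene's leftmost base from that of APOBEC3B or SLFN5, with APOBEC3D and APOBEC3G placed by GENCODE 29. Red points are the restriction factors and dark points their neighbours, filled where called: APOBEC3F (2.43) and APOBEC3G (2.002) stand above the rest of their cluster, and SLFN5 (-1.37) stands lowest in its own.

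HNRNPD binds AU-rich RNA, and so the pentamer ATTTA was counted in the 3′ untranslated region of the principal GENCODE 29 transcript of each gene. SLFN5 holds 23 in 7767 bases, SLFN13 holds 15 in 5499, SLFN11 holds 6 in 2051 and SAMHD1 holds 5 in 3159. APOBEC3G holds 2 in 322 and APOBEC3C 2 in 1965, APOBEC3B and SLFN12 hold 1 each, and APOBEC3D and APOBEC3F hold none. Per kb, the called genes were at 6.21 (APOBEC3G), 2.73 (SLFN13), 1.58 (SAMHD1), 1.02 (APOBEC3C) and 0 (APOBEC3D and APOBEC3F) where higher and at 2.96 (SLFN5) where lower. The genes not called were at 3.597 (SLFN12), 3.16 (APOBEC3B) and 2.93 (SLFN11) per kb. The median over 13314 coding genes was 1.63 per kb, and it was 1.61 in genes called higher and 1.71 in genes called lower.
The overlapping repeat of the pentamer is shown in capitals (GRCh38, from GENCODE 29), since only APOBEC3G of the 10 genes carries it, against 7.39% of the coding genes.
APOBEC3G (chr22:39087601-39087625, plus strand): aatcaaaaATTTATTTAtatttcaa
Letters alone do not show binding, and no binding was measured in these libraries.

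The pathways that these proteins act in were described from lists chosen by function, whose counts stand beside the 27.8% of all tested genes called lower and the 28.4% called higher. Of 14 genes that limit uracil in DNA or repair the abasic sites left behind, 8 were called lower and 3 higher. Their median log2 fold change was -0.33, against 0.01 for all tested genes. Uracil removal and abasic site repair follow APOBEC3 deamination. DUT, among the 8 lower (log2 fold change -0.50), instead breaks down free dUTP. PARP1, which signals DNA breaks, fell 1.78-fold to 148 ± 0.38 CPM with HNRNPD siRNA, against 263 ± 8.63 CPM with control siRNA (SD, n = 3 each, edgeR adjusted p = 5.77e-10). MBD4, a glycosylase for mismatched thymine and uracil, fell 1.82-fold (adjusted p = 4.23e-09), while TDG, another glycosylase of mismatched bases, rose 1.55-fold (adjusted p = 9.36e-08). UNG, the main uracil glycosylase and the fourth by p, had 9.15, 7.99 and 8.29 CPM with HNRNPD siRNA, against 15.8, 13.4 and 14.6 CPM with control siRNA (log2 fold change -0.79, edgeR adjusted p = 1.86e-06).

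Of 14 genes that make, salvage or break down dNTPs, the pool that SAMHD1 acts on, 9 were called lower and 2 higher. Their median log2 fold change was -0.32. The 9 include DCTPP1 (log2 fold change -0.82), which breaks down dCTP and so does not add to the pool. DCTPP1 shares 42.1% of its exonic bases with ZNF771 on the opposite strand. Thymidine kinase 1 (TK1) was at 7.56, 7.37 and 6.84 CPM with HNRNPD siRNA, against 20.9, 17.6 and 19.0 CPM with control siRNA, a 2.64-fold fall (edgeR adjusted p = 6.42e-10). Deoxycytidine kinase (DCK) fell 1.64-fold and the nucleotide kinase CMPK1 1.51-fold. The ribonucleotide reductase subunit RRM2 had a log2 fold change of -0.35 (adjusted p = 0.00103), whereas RRM1 was not called, at -0.10 (adjusted p = 0.25). The 2 genes called higher were TK2, the mitochondrial thymidine kinase, and DCTD, a deaminase of dCMP, at log2 fold changes of 0.54 and 0.51.

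Of 9 genes that set the phosphorylation of SAMHD1, 4 were called lower and 2 higher, with a median log2 fold change of -0.25. The share called, 6 of 9, is near the 56.1% over all tested genes. The catalytic and regulatory subunits of the phosphatase PP2A went apart: PPP2CA fell 1.61-fold (edgeR adjusted p = 3.81e-08) and PPP2R2A, which directs the phosphatase to its targets, rose 1.65-fold (adjusted p = 5.75e-07). CDK2 fell 1.29-fold (adjusted p = 6.22e-05). CDK1 had 111, 86.1 and 81.8 CPM with HNRNPD siRNA and 112, 105 and 115 CPM with control siRNA, and was not called (adjusted p = 0.0567). These are mRNA levels, and the phosphorylation of SAMHD1 was not measured.

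Among 11 genes of single-stranded DNA and stalled replication forks, where SLFN11 acts, 7 were called lower and 1 higher, with a median log2 fold change of -0.34. The exception, ATRIP, which recruits the checkpoint kinase ATR, had 20.5, 18.2 and 21.2 CPM with HNRNPD siRNA, against 7.86, 8.94 and 8.01 CPM with control siRNA, a 2.41-fold rise (edgeR adjusted p = 1.79e-09). ATRIP shares 33.8% of its exonic bases with TREX1, a DNA exonuclease gene on the same strand, which was itself at a log2 fold change of 1.87 (adjusted p = 1.56e-09), so the reads of these genes cannot be told apart there. RPA2 and CUL4A, a subunit of the single-strand binding protein RPA and a ubiquitin ligase scaffold, fell 1.59-fold and 1.35-fold. SLFN12 forms a complex with the phosphodiesterase PDE3A. PDE3A was at 217, 211 and 205 CPM with HNRNPD siRNA, against 52.4, 55.3 and 49.4 CPM with control siRNA, a 4.02-fold rise (edgeR adjusted p = 2.15e-14). PDE3B, a paralog of PDE3A, rose 1.57-fold (adjusted p = 8.86e-05).

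**Figure D5:**
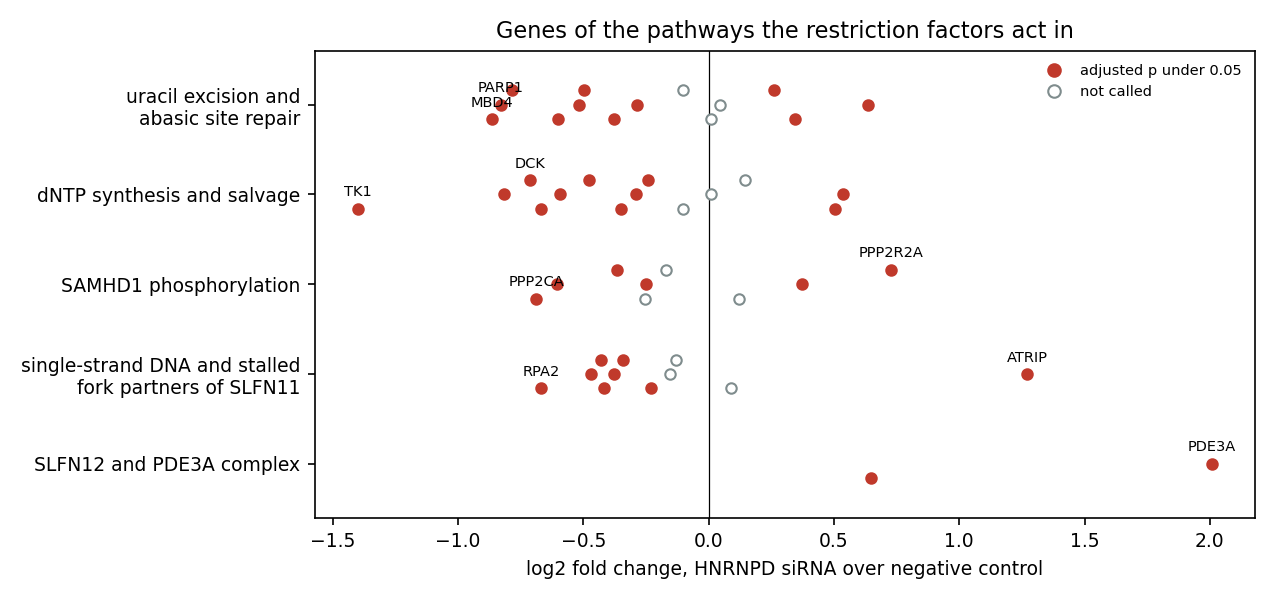
Each point is a gene of a pathway list that is reported here, other than the interferon list, placed by its log2 fold change (HNRNPD siRNA over control), filled red where called and open grey where not, with the genes of smallest p named. Most points of the repair, dNTP and replication fork lists lie left of 0, at medians of -0.33, -0.32 and -0.34, and PDE3A is at 2.01.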

How the data were processed

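RNA sequencing of 6 A549 libraries was analysed. The authors deposited a table of whole-number read counts per gene with exon coordinates and exonic length. The submitters' processing notes list Bowtie 0.12.2 among the tools, and GRCh38 and mm8 as builds without saying what each served. The sources used here do not give the counter, its annotation, the strand setting or the treatment of reads that match several places. Start and end equalled GENCODE 29 (GRCh38) for 7 of the 10 genes, and APOBEC3D, APOBEC3G and SAMHD1 differed at 1 or both ends. Even values made up 66.2% to 69.5% of the counts from 1 to 20, so both mates of a fragment may have been counted in part. Counting intervals cover counting error only.

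Counts were fitted with edgeR 4.0.16 in R 4.3.3 (filterByExpr, TMM, robust quasi-likelihood, group as the only term), checked on simulated data. The simulated data held few changed genes and gave every gene the same spread, so the check does not cover a comparison as broad as this one. Standard errors were derived from the fold change (log2) and the F statistic, and 95% intervals from the t distribution with the fit's degrees of freedom. The alternatives used DESeq2 1.42.0 and limma 3.58.1, other scalings and filters, counts divided by 2, and libraries left out in turn. Promoter sequences are RefSeq's (GRCh38.p14).

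Named genes are the 10, HNRNPD, relatives with a count, the 3 genes of smallest p in each list, the called neighbour of smallest p per cluster and the 3 genes most like the gene of smallest p. UNG, DUT, RRM1, RRM2, TK2, DCTD, DCTPP1, CDK1 and most neighbours were named after their values were seen. Some genes of the lists and 1 neighbour are not reported here. The genes and lists were chosen with earlier results of these data known.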

Additional observations from a re-analysis of the deposited data

How the results depend on the processing

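Over 148 values from the 10 genes and up to 15 alternatives each, no direction reversed and 3 calls changed, those of APOBEC3C and SLFN12 given above. SLFN12 was not tested with at least 1 CPM in 3 libraries or with counts divided by 2. The count of the 10 genes called higher was 5 to 7 when single libraries were left out and 6 under every other alternative, and 1 was called lower throughout. Over all alternatives, 5125 to 5965 genes were called higher and 5049 to 5926 lower. With no filter on low counts, 1 APOBEC relative was called higher, APOBEC3H. APOBEC3H is also a neighbour of the APOBEC3 genes, so the neighbours called higher went from 1 to 2. Of the neighbours of the Schlafen genes, 1 was called lower with library totals only and with the DESeq2 Wald test, and 1 to 2 when single libraries were left out, since NLE1 lost its call. The cause was not tested.

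Same-numbered libraries of the 2 groups deviated together only weakly (r = 0.09, 0.04 and 0.03 over genes). For libraries of different number r ran from -0.13 to 0.07. Deviations were taken from the mean of each group, which ties these values together, so they do not show whether libraries were paired. The labels give a shared number only, and no pairing is assumed. With a replicate block, 6 of the 10 genes were called higher and 1 lower, and 5792 genes were higher and 5737 lower in all. Depth limits SLFN12, APOBEC3H and APOBEC3A.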
